A study of Mus musculus with 6 samples.

Results

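*Mbp*, *Prx*, *Mag*, *Pmp22*, *Sox10*, *Ngfr*, *Cdh19* and *Scn7a* are genes of Schwann cells, the glia that wrap and insulate the axons of peripheral nerves. These 8 genes were examined among the 37384 gene symbols counted in adipocytes that had been floated from the inguinal subcutaneous white adipose tissue (scWAT) of male mice at postnatal day 7 (P7). They were chosen by name, with the difference between the genotypes already known, and were divided into 4 myelin genes (*Mbp*, *Prx*, *Mag* and *Pmp22*), 1 Schwann lineage factor (*Sox10*) and 3 genes of non-myelinating and immature Schwann cells (*Ngfr*, *Cdh19* and *Scn7a*). Their levels are therefore described without a test. Tests are given for 86 other Schwann genes outside the 8, whose lists were also drawn up with earlier results of these data known. All 8 passed the filter on low counts.

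The 6 libraries were 3 of L1L2-FF mice (Lats1f/fLats2f/f), which carry floxed *Lats1* and *Lats2*, and 3 of L1L2-AKO mice (Lats1f/fLats2f/fAdipoqCre), which carry the same floxed alleles and a Cre recombinase driven by the promoter of the adipocyte gene *Adipoq*. Every library was made from the adipocytes of 4 pooled mice, so the spread between libraries is a spread between pools. Total counts lay between 30548473 and 32107917, and levels are given as CPM, the counts divided by the library size after scaling by the TMM method. As a check of the labels, *Lats1* was at 76.1 to 94.3 CPM in L1L2-FF and at 38.9 to 41.2 CPM in the other libraries, whereas *Lats2* was at 68.5 to 85.7 CPM in L1L2-FF and at 96.2 to 135 CPM in the others. *Lats2* thus went against the label, and the second group is called the libraries labelled L1L2-AKO throughout. The counts are per gene and do not separate floxed exons from the others. By RT-qPCR, the paper reports reduced mRNA of both *Lats1* and *Lats2* in adipocytes from scWAT of P7 L1L2-AKO males. RT-qPCR and counts of a whole gene are unlike measures, and the cause of the difference in *Lats2* was not tested.

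Schwann cells arise from the neural crest. SOX10 is required for the lineage at every stage and, with EGR2, switches on the myelin genes in cells that have sorted a large axon, while cells that hold bundles of small axons stay non-myelinating. Myelin is a membrane spiral in which MBP and PMP22 belong to the compacted layers, MAG lies on the layer that faces the axon, and periaxin, the product of *Prx*, anchors the outer layer to the basal lamina. Nerve fibres run through inguinal fat, most of them thin, and myelination is under way in the first postnatal weeks. Adipocytes do not make myelin.

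RefSeq's table of promoters (GRCm38.p6, the assembly of mm10) held entries for 5 of the 8 genes, *Prx*, *Mag*, *Pmp22*, *Ngfr* and *Scn7a*. The 250 bases before the start site nearest the annotated start of the gene are shown for *Prx* and *Mag*, which were lower in the libraries labelled L1L2-AKO, and for *Pmp22*, which was higher. For *Pmp22* the last of its 4 start sites is shown as well, since this gene is transcribed from alternative first exons that counts per gene cannot separate. Capitals mark matches, on either strand, to the SOX core ACAAAG, the EGR core GCGNGGGCG or the TEAD core GGAATG (TEAD proteins are the DNA-binding partners of YAP and TAZ, which LATS kinases restrain). These motifs do not overlap one another in the windows.
Prx, chr7:27499074-27499323, plus strand: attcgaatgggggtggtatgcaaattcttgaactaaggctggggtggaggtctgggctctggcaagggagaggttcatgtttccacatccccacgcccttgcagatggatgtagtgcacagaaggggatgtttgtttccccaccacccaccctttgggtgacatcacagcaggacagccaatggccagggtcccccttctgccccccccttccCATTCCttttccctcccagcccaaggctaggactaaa
Mag, chr7:30914864-30915113, minus strand: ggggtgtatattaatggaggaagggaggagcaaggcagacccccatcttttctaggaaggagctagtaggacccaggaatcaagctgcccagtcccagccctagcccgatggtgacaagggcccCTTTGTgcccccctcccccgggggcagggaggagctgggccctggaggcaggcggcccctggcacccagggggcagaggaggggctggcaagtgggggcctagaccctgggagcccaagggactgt
Pmp22 first start, chr11:63128732-63128981, plus strand: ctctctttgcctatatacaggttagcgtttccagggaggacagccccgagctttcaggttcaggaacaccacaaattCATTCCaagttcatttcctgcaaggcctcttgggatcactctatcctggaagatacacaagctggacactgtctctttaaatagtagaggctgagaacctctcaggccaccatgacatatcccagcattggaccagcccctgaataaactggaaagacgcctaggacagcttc
Pmp22 last start, chr11:63132553-63132802, plus strand: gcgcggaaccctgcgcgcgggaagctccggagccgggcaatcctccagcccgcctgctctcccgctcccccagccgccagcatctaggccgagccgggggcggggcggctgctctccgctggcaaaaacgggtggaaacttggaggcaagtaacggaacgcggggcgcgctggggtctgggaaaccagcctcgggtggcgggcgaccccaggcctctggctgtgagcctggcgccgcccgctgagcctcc
The TEAD core was found on the strand opposite to the one printed, 37 bases before the start of *Prx* and 173 bases before the first start of *Pmp22*, and the SOX core, also on the opposite strand, 126 bases before that of *Mag*. The last *Pmp22* window held none of the motifs. In windows not shown, the TEAD core lay 227 bases before another of the 3 starts of *Mag* and 188 bases before the start of *Scn7a*. The *Scn7a* window also held the EGR core, 125 bases before the start, and that of *Ngfr* held none. Among all 32851 promoter windows of this length, 16.5% held the SOX core, 4.70% the EGR core and 12.6% the TEAD core, so these short strings are common. The window of *Mag* contains 66.0% G and C, that of *Prx* 56.4%, and those of *Pmp22* 48.8% at the first and 73.6% at the last start.

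Expression of *Sox10*, *Mbp*, *Mag* and *Cdh19* was lower without overlap in the libraries labelled L1L2-AKO, that of *Pmp22* was higher without overlap, and the ranges of *Prx*, *Ngfr* and *Scn7a* overlapped. Of all 15674 genes tested, 18.4% were lower and 18.0% higher without overlap, beside 4 and 1 of these 8. The fitted levels in the libraries labelled L1L2-AKO were between 27.8% (*Cdh19*) and 43.6% (*Mbp*) of those in L1L2-FF for 5 genes, and 110%, 137% and 202% for *Ngfr*, *Scn7a* and *Pmp22*. The median log2 fold change was -1.31 over the 4 myelin genes and 0.14 over the 3 non-myelinating and immature genes, beside -0.02 over all genes tested. The genes parted within both classes, *Pmp22* being higher beside lower *Mbp*, *Prx* and *Mag*, and *Cdh19* lower beside overlapping *Ngfr* and *Scn7a*. Because bulk RNA was measured, fewer Schwann cells and less of a transcript in each Schwann cell cannot be told apart.

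**Figure D1:**
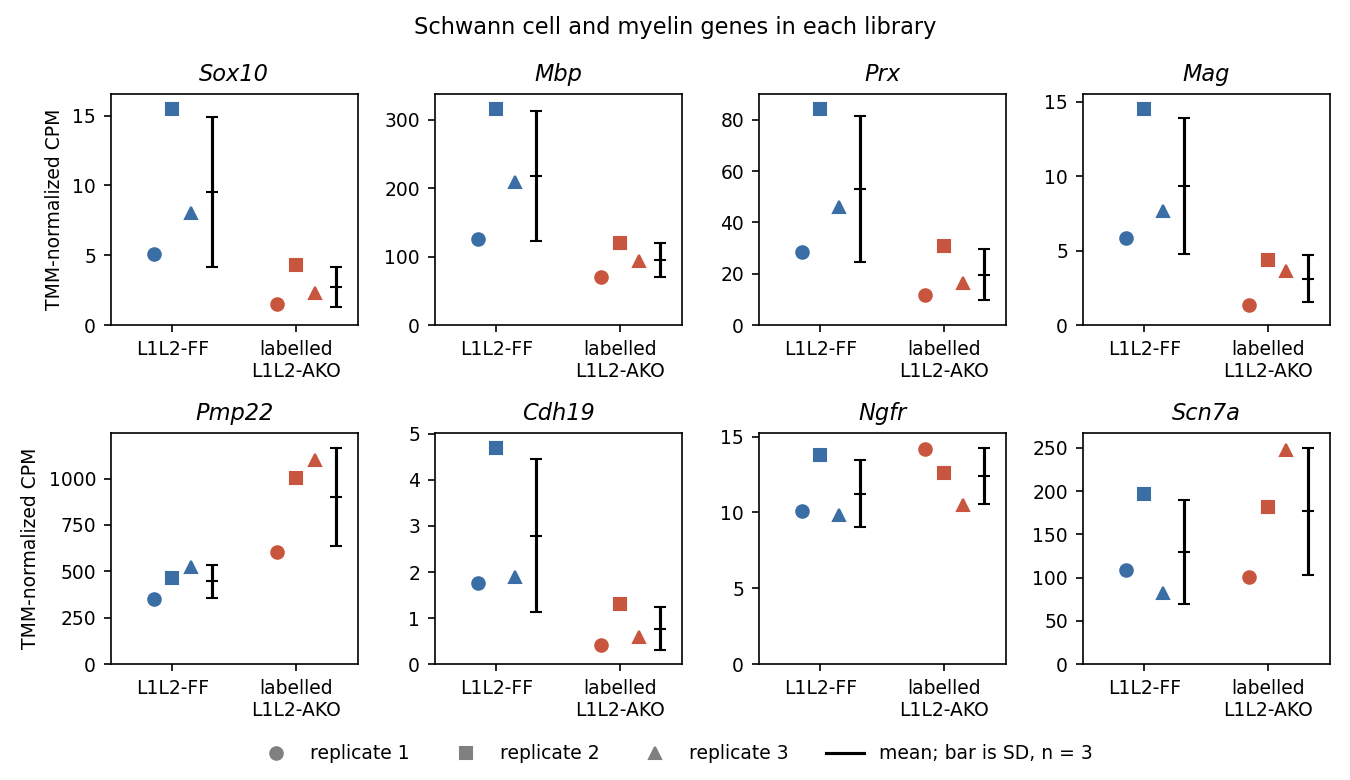
TMM-normalized CPM (vertical axes, from 0) of each of the 8 genes in the 3 L1L2-FF libraries (blue) and the 3 libraries labelled L1L2-AKO (red), with the mean and SD of each group in black and the replicate number as the shape of the point. *Sox10*, *Mbp*, *Mag* and *Cdh19* are lower without overlap, *Prx* is lower with an overlap, *Pmp22* is higher without overlap, and for *Sox10*, *Mbp*, *Prx*, *Mag* and *Cdh19* replicate 2 is the highest library of each group.

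*Sox10* (mm10, chromosome 15, 79154908 to 79165240, minus strand, ENSMUSG00000033006.10) encodes the transcription factor that defines the lineage. Its level was 5.08, 15.5 and 7.99 CPM in L1L2-FF replicates 1 to 3 and 1.54, 4.31 and 2.30 CPM in the libraries labelled L1L2-AKO. In counts these were 159, 501 and 248 against 51, 136 and 66 reads. The highest library labelled L1L2-AKO stayed below the lowest L1L2-FF library, but the L1L2-FF libraries differed among themselves by 3.05 times. The fitted log2 fold change was -1.81 (standard error 0.489), from 9.52 ± 5.37 to 2.72 ± 1.43 CPM (SD, n = 3 each). It was -1.26 without L1L2-FF replicate 2 and -2.31 without L1L2-AKO replicate 2, so its size rests on the replicate 2 libraries.

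*Mbp*, which encodes the myelin basic protein that glues the inner faces of the membrane together, was the most abundant of the 5 genes with lower means, at 126, 316 and 210 CPM in L1L2-FF and 70.3, 120 and 93.6 CPM in the libraries labelled L1L2-AKO. The groups came close, with 120 CPM in the highest of these and 126 CPM in the lowest L1L2-FF library. The log2 fold change was -1.20 (standard error 0.328). The *Mbp* locus also produces the longer Golli transcripts, which are made outside myelinating cells, and a count per gene holds both.

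*Mag* (chromosome 7, 30899176 to 30914873, minus strand, ENSMUSG00000036634.15), the sialic acid-binding adhesion protein of the inner myelin layer, was at 5.87, 14.5 and 7.64 CPM in L1L2-FF and 1.36, 4.38 and 3.63 CPM in the libraries labelled L1L2-AKO. All of the latter lay below all of the former, and the log2 fold change was -1.58 (standard error 0.472). *Prx* (chromosome 7, 27499324 to 27520214, plus strand, ENSMUSG00000053198.13) was at 28.6, 84.3 and 46.0 CPM against 11.8, 30.8 and 16.5 CPM. Here the ranges met, since L1L2-AKO replicate 2 was 1.08 times L1L2-FF replicate 1. *Prx* had a log2 fold change of -1.43 (standard error 0.448), which became -0.92 without L1L2-FF replicate 2 and -1.91 without L1L2-AKO replicate 2. The annotated antisense gene *Gm15541* lies opposite *Prx* and shares 2.40% of its 50-base stretches, and the strand setting of the counting is not given in the sources used here.

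*Cdh19* (chromosome 1, 110888326 to 110977584, minus strand, ENSMUSG00000047216.8), a cadherin that marks Schwann cell precursors and stays on in mature Schwann cells, was the least abundant of the 8. It was read 55, 152 and 59 times in L1L2-FF and 14, 41 and 17 times in the libraries labelled L1L2-AKO, or 1.76, 4.70 and 1.90 against 0.422, 1.3 and 0.594 CPM. The groups did not overlap. The annotated genes *Gm38255* and *Gm36944* overlap it on the same strand. Its log2 fold change was -1.85 (standard error 0.546), and it became -1.24 without L1L2-FF replicate 2 and -2.45 without L1L2-AKO replicate 2.

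*Pmp22* (chromosome 11, 63128982 to 63159547, plus strand, ENSMUSG00000018217.12) encodes a tetraspan protein of compact myelin that many non-neural cells also make, fibroblasts among them. It was at 351, 465 and 521 CPM in L1L2-FF and at 603, 1005 and 1100 CPM in the libraries labelled L1L2-AKO, all of which were higher. The log2 fold change was 1.02 (standard error 0.254), with a range of 0.86 to 1.24 over the 6 fits that each omit 1 library. None of the 50-base stretches of its transcripts occurs in another annotated gene. In every library *Pmp22* had more reads than *Mbp*.

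*Ngfr* (chromosome 11, 95568818 to 95587735, minus strand, ENSMUSG00000000120.6), the low-affinity neurotrophin receptor p75, is carried by immature and non-myelinating Schwann cells and also by nerve-associated and perivascular stromal cells. Its level was 10.1, 13.8 and 9.86 CPM in L1L2-FF and 14.2, 12.6 and 10.5 CPM in the libraries labelled L1L2-AKO, so the groups overlapped and the log2 fold change was 0.14 (standard error 0.192). *Scn7a* (chromosome 2, 66673425 to 66784914, minus strand, ENSMUSG00000034810.7), which encodes an atypical sodium channel of non-myelinating Schwann cells and of some neurons and stromal cells, was at 108, 197 and 82.1 CPM against 101, 181 and 248 CPM. These ranges overlapped widely, and the log2 fold change of 0.45 (standard error 0.385) ranged from 0.14 to 0.89 over the same fits.

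To compare the genes with one another, levels were divided by the exon length of each gene. This length is the union of the exons of all its annotated transcripts, 8469 bases for *Mbp* and 2354 for *Pmp22*. A gene whose expressed transcripts use only part of that union is thus given too low a level. In L1L2-FF, *Pmp22* stood at 189 ± 36.8 CPM per kb (SD, n = 3), followed by *Mbp* at 25.7 ± 11.2, *Scn7a* at 17.6 ± 8.20, *Prx* at 9.49 ± 5.11, *Ngfr* at 3.26 ± 0.640, *Sox10* at 3.12 ± 1.76, *Mag* at 2.30 ± 1.12 and *Cdh19* at 0.651 ± 0.388. Neighbours in this order overlapped between *Mbp* and *Scn7a*, *Scn7a* and *Prx*, *Ngfr* and *Sox10*, and *Sox10* and *Mag*. In the libraries labelled L1L2-AKO, *Scn7a* (24.1 ± 10.01 CPM per kb) came before *Mbp* (11.2 ± 2.96), and *Ngfr* (3.60 ± 0.539) before *Prx* (3.53 ± 1.77), and the members of each pair overlapped there. *Pmp22* stayed first, at 383 ± 112, and *Cdh19* last, at 0.180 ± 0.109.

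In *Sox10*, *Mbp*, *Prx*, *Mag* and *Cdh19* the highest library was replicate 2 in L1L2-FF and replicate 2 again in the libraries labelled L1L2-AKO. The labels do not say that a number marks a shared litter or day. Within L1L2-FF the highest library exceeded the lowest by 2.50 times for *Mbp*, 2.95 times for *Prx*, 2.47 times for *Mag*, 3.05 times for *Sox10* and 2.68 times for *Cdh19*, which is similar in size to the difference between the genotypes. To set this common swing aside, the reads of each gene were divided by the *Sox10* reads of the same library, a step chosen after the values were seen.

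Per *Sox10* read, *Prx* gave 5.44 to 5.75 reads in L1L2-FF and 7.13 to 7.65 in the libraries labelled L1L2-AKO. The 3 L1L2-FF libraries, whose *Prx* levels differ by 2.95 times, were thus within 1.06 times of one another on this scale, and the other 3 were 1.304 times higher on average, without overlap. *Mag* gave 0.938 to 1.16 against 0.882 to 1.58 reads and *Cdh19* 0.238 to 0.346 against 0.258 to 0.301, both overlapping. *Mbp* gave 20.4 to 26.2 against 27.9 to 45.7 reads, without overlap, and 1.60 times higher on average. The difference between the groups was thus smaller in *Mbp* and *Prx* than in *Sox10*. These ratios rest on 159, 501 and 248 *Sox10* reads in L1L2-FF and 51, 136 and 66 in the others. Their counting error was not estimated.

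The other members were not in this proportion. *Sox10* itself was at 28.6% of its L1L2-FF level, so a gene of unchanged level also gives more reads per *Sox10* read. In CPM the groups overlapped for *Ngfr* and *Scn7a*. The share of all genes that separate on this scale was not measured. *Pmp22* gave 30.0 to 69.2 reads per *Sox10* read in L1L2-FF and 233 to 477 in the libraries labelled L1L2-AKO. *Ngfr* gave 0.890 to 1.99 against 2.92 to 9.22, and *Scn7a* 10.3 to 21.4 against 42.0 to 108. Already among the L1L2-FF libraries these ratios differed by 2.31, 2.23 and 2.08 times, so *Pmp22*, *Ngfr* and *Scn7a* were not in proportion to *Sox10* there. As a description over the 6 libraries, their deviations from the genotype means correlated with those of *Sox10* at 0.640, 0.396 and 0.644, and those of *Prx*, *Mbp*, *Cdh19* and *Mag* at 0.913 to 0.999.

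**Figure D2:**
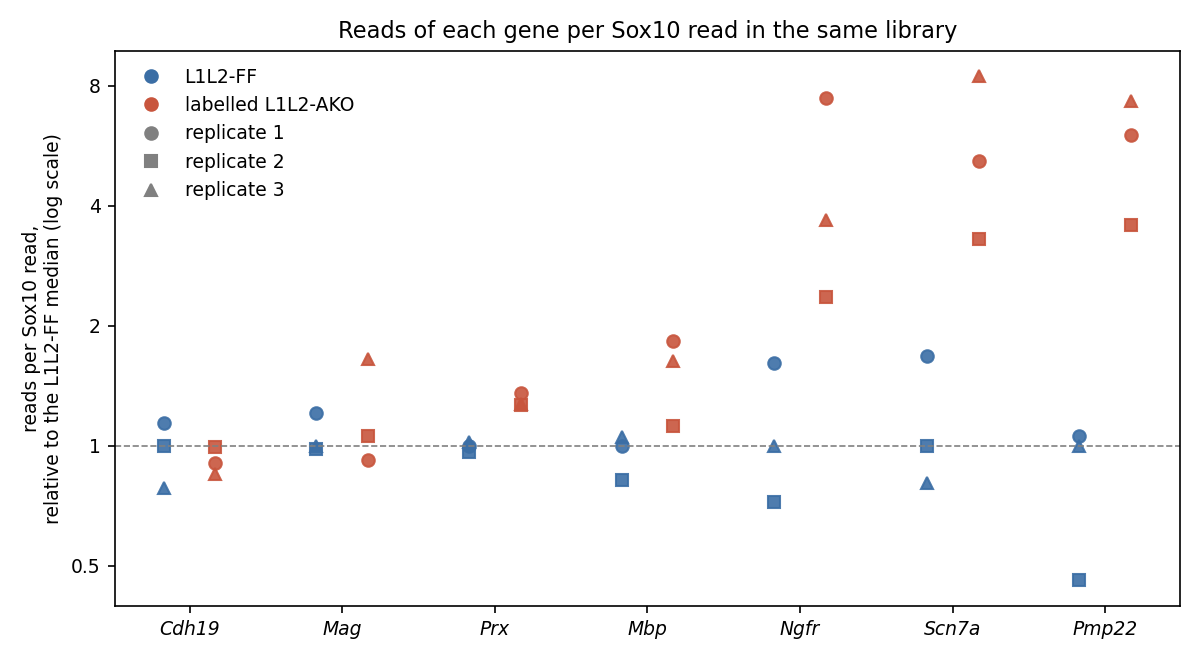
Reads of each gene per *Sox10* read of the same library, divided by the L1L2-FF median of that gene (vertical axis, log scale), for 7 of the 8 genes, with L1L2-FF libraries in blue, libraries labelled L1L2-AKO in red and the replicate number as the shape. In *Cdh19* and *Mag* the groups overlap around 1, the means of *Prx* and *Mbp* in the libraries labelled L1L2-AKO are 1.304 and 1.60 times those of L1L2-FF, and those of *Ngfr*, *Scn7a* and *Pmp22* 4.06, 4.86 and 6.70 times. The divisor, *Sox10*, is itself at 28.6% of its L1L2-FF level, so genes of unchanged level also rise on this axis.

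The 86 other Schwann genes were grouped into 7 lists by role, with earlier results of these data known. Of these genes, 77 passed the count filter, and the numbers called are given as a description. With edgeR's quasi-likelihood test and an adjusted p under 0.05, 30 were lower and 13 higher in the libraries labelled L1L2-AKO and 34 did not pass, where 7.18% of all genes tested were lower and 9.28% higher. Their median log2 fold change was -0.89. Leaving out L1L2-AKO replicate 3 brought the number lower to 11, L1L2-AKO replicate 1 to 17 and either L1L2-FF replicate 2 or 3 to 19. The number higher was 7 without L1L2-FF replicate 1 and 8 without L1L2-AKO replicate 2 or 3.

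Most genes of the compact myelin list, which also holds the nodal gene *Gldn*, were lower. Of 6 genes, 4 were lower, 1 was higher and 1 did not pass, with a median log2 fold change of -1.77. *Pmp2*, a fatty acid-binding protein of myelin, *Mal*, a proteolipid that sorts myelin proteins, and *Gldn*, which gathers sodium channels at nodes, fell by 1.98, 1.88 and 1.68 on the log2 scale (edgeR adjusted p = 0.0160, 0.0353 and 0.0464). With each library omitted once, *Mal* was called in 2 of 6 fits and *Gldn* in 1. *Cd9*, a tetraspanin found on many cell types, rose by 0.96 on the log2 scale (adjusted p = 0.0290, not called without L1L2-FF replicate 1 or 3 or L1L2-AKO replicate 2 or 3). Without L1L2-AKO replicate 3, no compact myelin gene was called, and without L1L2-FF replicate 2 or 3 or L1L2-AKO replicate 1, only 1 was called lower.

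The list of non-compact myelin and of the paranode, where the myelin edge meets the axon, held 18 genes. Of these, 17 were tested, 8 were lower, 3 higher and 6 not called. *Cldn19*, a claudin of the Schwann cell's own tight junctions, fell by 2.09 on the log2 scale (edgeR adjusted p = 0.0185), from 12.4, 36.6 and 19.3 CPM in L1L2-FF to 2.84, 7.26 and 6.01 CPM. *Kcna1*, a potassium channel beside the paranode, fell by 1.94 (adjusted p = 0.0444, called in 1 of 6 fits with a library omitted) and *Cadm4*, the Schwann cell's adhesion partner on the internode, by 1.82 (adjusted p = 0.0109). *Cntn2* stood apart. This contactin, which axons and glia place beside the paranode, had 6, 6 and 19 reads in L1L2-FF and 253, 1630 and 1317 reads in the libraries labelled L1L2-AKO, a log2 fold change of 6.72 (adjusted p = 0.00214, and 0.0548 with limma-voom). It was 7.50 without L1L2-FF replicate 3, which held 19 of the L1L2-FF reads, so the size of the change rests on a few reads in L1L2-FF. *Mpdz* and *Arhgef10*, the most abundant genes of the list and widely expressed, rose by 1.40 and 0.62 on the log2 scale (adjusted p = 0.00452 and 0.0104). The number lower was 2 to 6 in the fits without a library, with 2 without L1L2-AKO replicate 3, and 5 with limma-voom.

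The list of myelin lipid enzymes, which also holds *Ndrg1*, not itself a lipid enzyme, split in the same way. Of 8 genes, 5 were lower, 1 was higher and 2 were not called, with a median log2 fold change of -1.70. *Fa2h* and *Ugt8a*, which hydroxylate the fatty acid and add the galactose of galactosylceramide, fell by 1.93 and 1.88 on the log2 scale (edgeR adjusted p = 0.0178 and 0.0258), and *Gal3st1*, which adds the sulfate, fell by 1.74 (adjusted p = 0.0474, called in 1 of 6 fits with a library omitted). *Ugt8a* was called in 3 of these 6 fits. *Aspa*, which frees acetate from N-acetylaspartate, fell by 1.92 (adjusted p = 0.00335) with its highest L1L2-FF value in replicate 3, at 65.8 CPM beside 37.6 and 33.2 CPM, and so not in the order of *Sox10*. *Cers2* and *Ndrg1*, the most abundant genes of the list, are used by many cells and did not pass (log2 fold changes -0.20 and 0.93). Between 1 and 4 of the 5 were called lower without a library, with 1 without L1L2-AKO replicate 3.

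Among 12 transcription factors of the lineage, 10 were tested, 3 were lower, 1 higher and 6 not called. *Egr2*, the main activator of myelination, was at 96.3, 85.9 and 75.1 CPM in L1L2-FF and at 27.0, 24.2 and 21.1 CPM in the libraries labelled L1L2-AKO. Its log2 fold change of -1.83 had a standard error of only 0.143 (edgeR adjusted p = 3.9e-04), and it was called in 6 of 6 fits with a library omitted. *Egr2* did not share the swing of *Sox10* between libraries, with 5.54 to 19.0 reads per *Sox10* read in L1L2-FF and 5.62 to 17.5 in the others, and it is also expressed in macrophages and in fat. *Pou3f1*, the factor of the promyelinating stage, fell by 1.70 on the log2 scale (adjusted p = 0.0144). *Sox2*, a factor of immature Schwann cells, was called lower at very low counts, with 16, 24 and 12 reads in L1L2-FF but only 2, 0 and 2 where the label is L1L2-AKO, a ratio of summed counts of 0.0772 with an exact 95% interval of 0.0203 to 0.210 that covers counting error only. *Nab2*, a corepressor that EGR proteins recruit, rose by 0.63 (adjusted p = 0.0348), and passed in 0 of 6 fits with a library omitted (adjusted p of up to 0.141), while *Zeb2* and *Nab1*, the most abundant of the list, had log2 fold changes of 0.09 and 0.35 and did not pass.

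Genes of non-myelinating and immature Schwann cells went both ways. Of 20, 19 were tested, with 7 lower, 3 higher and 9 not called, and a median log2 fold change of -0.78. *Gap43*, a growth-associated protein of non-myelinating Schwann cells and of growing axons, fell by 2.43 on the log2 scale (edgeR adjusted p = 0.00141), from 31.7, 16.5 and 25.1 CPM to 5.73, 4.22 and 3.60 CPM. Within L1L2-FF it was lowest in replicate 2, the library in which *Sox10* was highest. *Sostdc1*, a secreted BMP and Wnt antagonist, fell by 2.35 (adjusted p = 0.0136). *Adamts5*, a protease of the matrix proteoglycans, rose from 121, 81.1 and 115 to 1335, 1397 and 1915 CPM, a log2 fold change of 3.88 (adjusted p = 1.8e-04), and *Cryab*, a small heat shock protein, rose by 1.91 (adjusted p = 0.00141). Both are also made by stromal and muscle cells. The number lower was 3 without L1L2-AKO replicate 3.

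In the list of axon-to-Schwann signalling, 2 of 11 tested genes were lower, 3 higher and 6 not called, and the median log2 fold change was 0.19. *Dhh*, the hedgehog ligand that Schwann cells send to the nerve sheath, fell by 1.48 on the log2 scale (edgeR adjusted p = 0.0472, called in 1 of 6 fits with a library omitted), and *Prnp*, the prion protein, whose release by axons helps maintain myelin, fell by 1.10 (adjusted p = 0.00647). *Gas6*, a ligand of the TAM receptors, rose by 2.86 (adjusted p = 0.00217), and *Adam22*, the axonal receptor of the Schwann cell protein LGI4, by 0.91 (adjusted p = 0.0185). *Adam22* was called in 3 of 6 fits with a library omitted. *Prnp* and *Gas6* are the most abundant of the list and have many sources. *Erbb3*, the neuregulin receptor of Schwann cells, named after its values were seen, had a log2 fold change of -1.18 and did not pass (adjusted p = 0.0773). The number higher was 1 without L1L2-FF replicate 1, L1L2-AKO replicate 2 or L1L2-AKO replicate 3, and the number lower was 1 without any one library other than L1L2-FF replicate 1.

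The repair list holds genes that Schwann cells switch on after nerve injury. Of 10 genes, 6 were tested. *Bdnf*, a neurotrophin, rose from 24, 26 and 10 reads to 113, 357 and 335 reads, a log2 fold change of 3.79 (edgeR adjusted p = 0.00344), *Jun*, the factor that drives the repair state and an immediate-early gene of most cells, fell by 1.02 on the log2 scale (adjusted p = 0.00604), and *Mcam*, abundant in vessels, did not pass (log2 fold change 0.21). *Shh* and *Olig1*, both characteristic of repair Schwann cells, had at most 10 reads in every library.

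**Figure D3:**
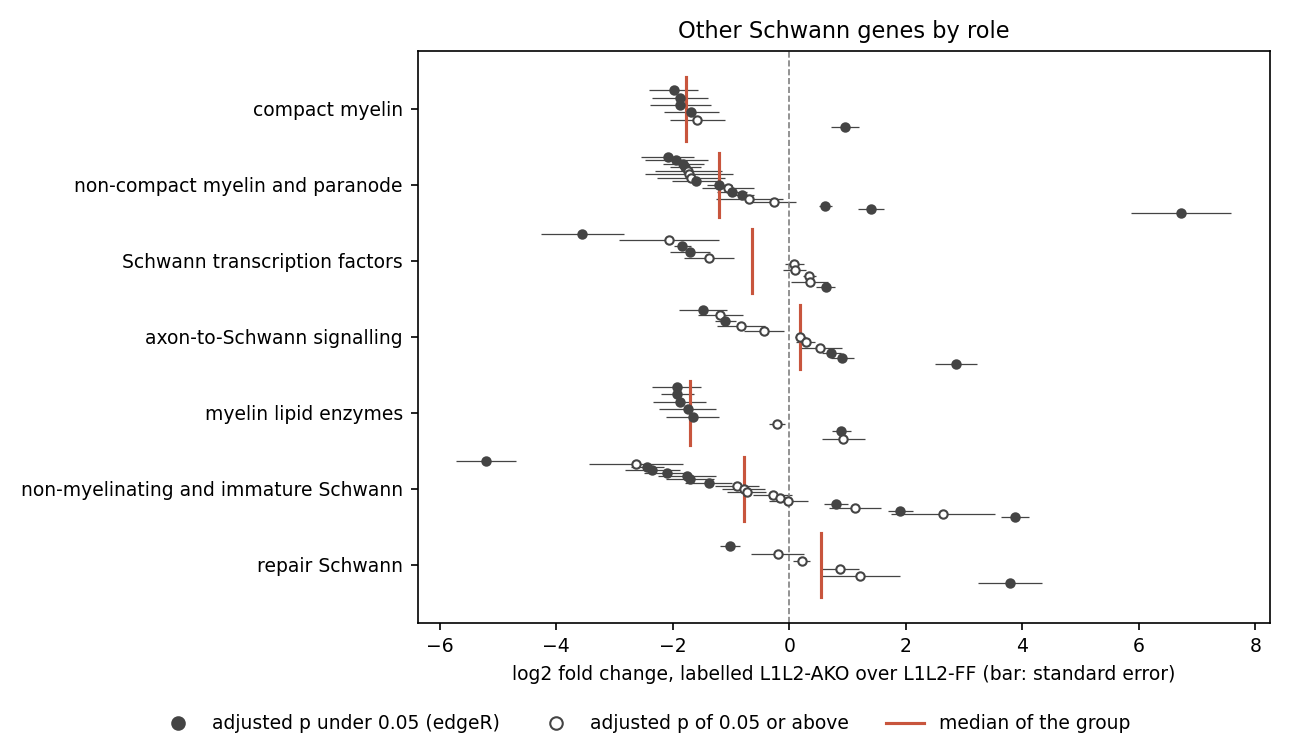
Fitted log2 fold change (horizontal axis, libraries labelled L1L2-AKO over L1L2-FF) of the 77 tested Schwann genes outside the 8, by role, with the standard error as a bar, filled points for an adjusted p under 0.05 in edgeR's test and a red line at the median of each group. The medians lie at -1.77 for compact myelin and -1.70 for myelin lipid enzymes and at 0.55 for repair genes, and the highest point is *Cntn2* at 6.72; *Sox2*, the lowest transcription factor, rests on at most 2 reads in each library labelled L1L2-AKO.

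Likeness to the 8 genes was measured over the 6 libraries, as the Pearson correlation of log2 CPM with the mean z-score of the 8. These correlations share the libraries and the difference between the genotypes and are given as a description. Among 12448 other genes, those most alike were *Las1l*, *Sirt2*, *Rpl9*, *Tut1*, *Rpl35a-ps3*, *Cnp*, *Akap8*, *Col11a1*, *Endov* and *Gpm6b*, at 0.978 to 0.992. *Cnp* encodes a myelin enzyme and *Gpm6b* a membrane proteolipid of glia and neurons. The mean of the 8 was itself a blend, since its correlation with *Prx* was 0.917 and with *Pmp22* -0.11.

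When *Sox10* alone was taken as the pattern, a choice made after the values were seen, the genes most alike included *Itgb8*, *Ugt8a*, *Reln*, *Kcna1*, *Adamts20*, *Prorp*, *Ggnbp1* and *Mal*, at 0.986 to 0.999, of which *Ugt8a*, *Kcna1* and *Mal* are on the lists of other Schwann genes. Of the 77 tested other Schwann genes 24 reached a correlation of 0.9 with *Sox10*, 31.2%, beside 2.17% of all genes tested. By role these were 5 of 6 in compact myelin, 8 of 17 at the non-compact myelin and paranode, 4 of 8 myelin lipid enzymes, 4 of 19 non-myelinating and immature genes, 2 of 11 signalling genes, 1 of 10 transcription factors and 0 of 6 repair genes. Among markers of other cell types, 2 of 12 for perineurial and endoneurial fibroblasts (16.7%) and 1 of 8 for adipose progenitors (12.5%) reached it. Each of the other cell type lists held 0. *Sox10* and the lists were chosen with earlier results known, and the correlation holds the difference between the genotypes, so these shares are a description. *S100b*, a calcium-binding protein used as a Schwann marker and also made by adipocytes, was at 52.3, 22.0 and 74.2 CPM in L1L2-FF and 10.1, 11.5 and 13.0 CPM in the libraries labelled L1L2-AKO (log2 fold change -2.10, edgeR adjusted p = 0.00937, named after its values were seen), with its lowest L1L2-FF value where *Sox10* was highest.

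Other cell types were followed by 10 lists of markers. The libraries hold adipocyte RNA as labelled, with *Adipoq* at 2108 CPM on average in L1L2-FF and 878 CPM in the libraries labelled L1L2-AKO (edgeR adjusted p = 0.00640) and *Fabp4*, a fatty acid-binding protein of adipocytes, at 8164 and 6610 CPM. *Fabp4* did not pass (edgeR adjusted p = 0.389). Of the 8 mature adipocyte markers, 7 had negative log2 fold changes. EdgeR called 2 lower and 6 were not called, and DESeq2 called 5. Axon and neuron markers were near the floor, with 2 of 16 (*Th* and *Scn10a*) at 0 and 8 at no more than 10 reads in any library, and their summed level was 7.80 to 10.1 CPM in L1L2-FF and 8.52 to 12.4 CPM in the others. *Uchl1*, the most abundant of them, had a log2 fold change of -0.26, and of the 6 tested only *Tubb3*, a neuronal tubulin, was called by edgeR (1.91, adjusted p = 0.0337), with 9 to 16 reads in L1L2-FF and 23 to 65 in the others. DESeq2 called 2 of the list and limma-voom 0, and 2 had an unadjusted p under 0.05 in edgeR's test (*Tubb3* and *Calca*). Of the 6 tested, 3 had negative log2 fold changes, *Calca* among them, lower without overlap (-1.42, edgeR adjusted p = 0.0512). Among markers not tested, *Nefm* and *Nefl* had 17 and 10 summed reads in L1L2-FF and 0 in the others, while *Dbh* had 0 and 6. *Calca*, *Nefm*, *Nefl* and *Dbh* were named after their values were seen. The markers of oligodendrocytes, the myelinating cells of the brain and spinal cord, summed to 1.29 to 2.04 against 1.46 to 2.84 CPM, and *Opalin*, *Ermn* and *Olig2* were at 0 in all libraries, while edgeR called 1 of the 2 tested markers higher and 1 lower. *Myrf*, the most abundant over all libraries, had 9 to 13 reads in L1L2-FF and 30 to 74 in the others (adjusted p = 0.00988), and *Cldn11*, named after its values were seen, had 27 to 47 against 4 to 16 reads (adjusted p = 0.0440). Without *Myrf* the sum of oligodendrocyte markers was lower without overlap, at 0.999 to 1.69 against 0.209 to 0.603 CPM, near the floor. Of 8 markers of melanocytes, which also express *Sox10*, 4 (*Tyr*, *Tyrp1*, *Mlana* and *Slc45a2*) had at most 10 reads in every library, and edgeR called 0 of the 4 tested, with 2 at an unadjusted p under 0.05 (*Dct* and *Kit*) and 0 called by DESeq2 or limma-voom. *Kit*, the most abundant and also a gene of mast cells, had a log2 fold change of -0.47.

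The summed level of skeletal muscle markers was lower in the same libraries as *Sox10*. It was 13.0 to 23.7 CPM in L1L2-FF, highest in replicate 2, and 3.90 to 11.5 CPM in the libraries labelled L1L2-AKO, lowest in replicate 2, in which *Sox10* was highest. All 7 tested markers had negative log2 fold changes, with 0 called by edgeR, 3 at an unadjusted p under 0.05, 3 called by DESeq2 and 1 by limma-voom. *Acta1*, the most abundant of them, had a log2 fold change of -1.67 (adjusted p = 0.0647). Without it the summed ranges met, at 6.38 to 14.3 against 2.89 to 6.39 CPM. Adipose progenitor markers summed to 1030 to 1453 CPM in L1L2-FF and 550 to 673 CPM in the others, but without *Dpt* (-1.73), the most abundant, the sums overlapped at 369 to 500 against 277 to 380 CPM, and 6 of 8 markers were not called, *Dpt* and *Pi16* (-0.88) being lower. Mural cell markers summed to 1027 to 1380 against 772 to 1036 CPM, with 3 lower, *Rgs5* (-1.22) among them, and 1 higher. Endothelial markers overlapped, at 1898 to 2546 against 1114 to 2417 CPM, and 0 of 8 were called by edgeR, DESeq2 or limma-voom, 1 had an unadjusted p under 0.05 (*Tek*), and *Cdh5*, the most abundant, was at -0.29. Of 12 macrophage markers 11 were called higher, with *Mrc1* at 1.84, and their sum was 272 to 532 against 980 to 1091 CPM, or 222 to 436 against 740 to 803 CPM without *Mrc1*. The markers of perineurial and endoneurial fibroblasts, the cells of the nerve sheath, went both ways. Their sum of 92.6 to 131 against 188 to 258 CPM was carried by *Ccl11* (1.88), without which the ranges overlapped at 62.4 to 92.7 against 91.0 to 103 CPM. Of the 12 tested, 8 were not called, *Ccl11*, *Ntn4* and *Wif1* were higher, and *Cldn1*, a perineurial claudin, was lower (-1.35). The part of these cells in the levels of the Schwann genes was not tested.

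**Figure D4:**
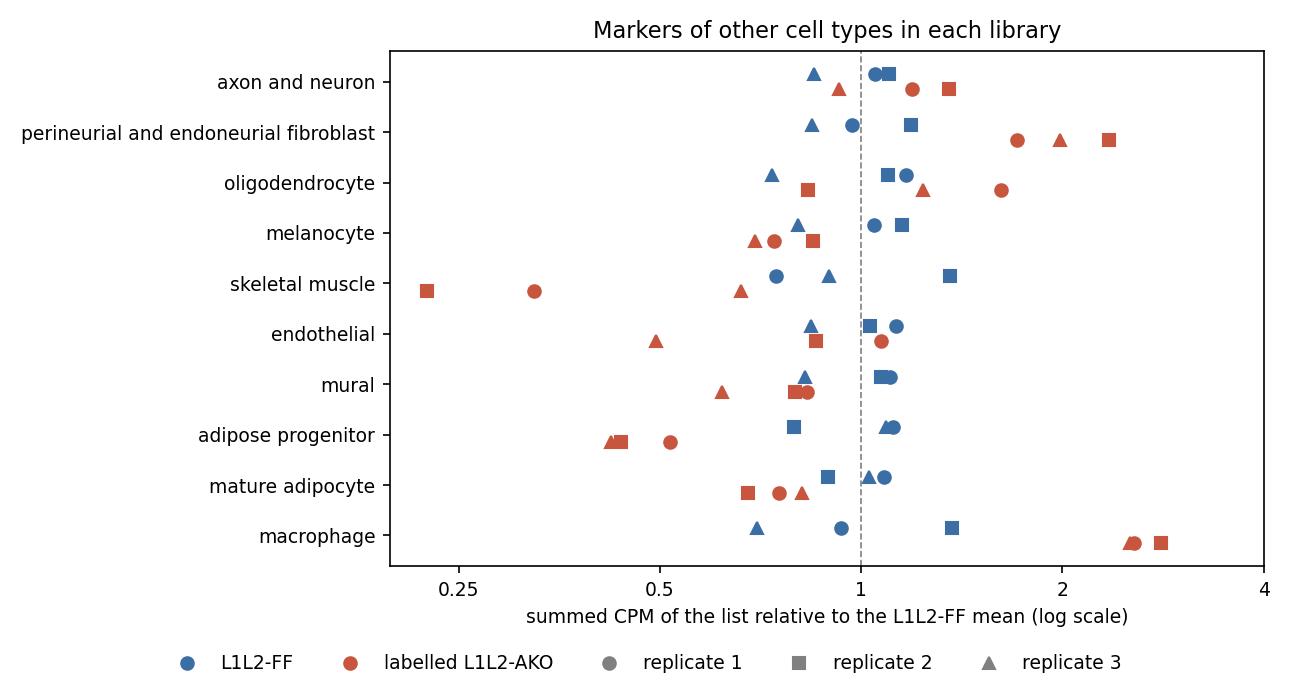
Summed CPM of each list of markers in each library, divided by the mean of the 3 L1L2-FF libraries (horizontal axis, log scale), with L1L2-FF libraries in blue, libraries labelled L1L2-AKO in red and the replicate number as the shape. The sums for macrophages and nerve sheath fibroblasts are higher without overlap in the libraries labelled L1L2-AKO, those for skeletal muscle, adipose progenitors and mature adipocytes are lower without overlap, of which the sums for nerve sheath fibroblasts, muscle and progenitors overlap once the most abundant gene is left out, and those of axons, oligodendrocytes, melanocytes, mural and endothelial cells overlap. Without *Myrf*, its most abundant gene, the oligodendrocyte sum is lower without overlap, near the floor.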

How the data were processed

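RNA was measured in adipocytes isolated by collagenase digestion and flotation from P7 scWAT, in 3 L1L2-FF and 3 L1L2-AKO libraries, each a pool of 4 mice. The authors sequenced paired ends on a BGISEQ-500 and deposited raw read counts per gene symbol. Their notes name HISAT2 2.1.0, StringTie 1.3.5 and mm10, while the counting program, strand setting and annotation are not given in the sources used here. Depth was even across libraries, and intervals on counts cover counting error only.

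Genes were filtered by filterByExpr (15674 of 37384 tested), scaled by TMM and tested by edgeR's quasi-likelihood test (edgeR 4.0.16, R 4.3.3, two-sided, Benjamini-Hochberg adjustment over all genes tested, threshold 0.05), genotype being the only term. Alternatives were DESeq2 1.42.0, limma-voom (limma 3.58.1), other scalings and filters, a replicate block and each library left out. The test was checked on simulated data. Lengths came from GENCODE M21 and promoters from RefSeq.

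The 8 genes and all lists were chosen with earlier results of these data known. Named were the 8 genes, in each Schwann list the called genes (at most 4, by absolute log2 fold change) and the 2 of highest mean CPM, in each list of another cell type the gene of highest mean CPM, *Lats1*, *Lats2* and the 10 genes most like the 8. Others were named, and sums of markers without their most abundant gene were added, after the values were seen. Some genes that this rule selects, counted in their lists, are not reported here. P-values concern the difference between the genotypes, judged against the spread between pools.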

Additional observations from a re-analysis of the deposited data

How the results depend on the processing

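The log2 fold changes of the 8 genes kept their direction in all 14 alternatives. For the other Schwann genes, the number lower ran from 11 to 24 and the number higher from 7 to 13 with each library left out in turn, beside 30 and 13 with all 6 libraries, and from 24 to 36 and 12 to 15 under the other settings. Over all genes tested the number called was 2580, ran from 1281 to 2845 with each library left out and from 2413 to 3374 under the other settings. The fits without a library hold fewer samples, and the cause of the remaining changes was not tested.

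The replicate numbers are shared by both genotypes, but nothing in the labels pairs them, and the deviations of same-numbered libraries from their group means correlated at 0.19, 0.26 and -0.05 for replicates 1, 2 and 3. With the replicate block, 36 other Schwann genes were lower and 12 higher, and 2514 genes were called in all. *Nab2* lost its call there (edgeR adjusted p = 0.0662).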
